A study of Saccharomyces cerevisiae with 95 samples.

Results

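The strongest binding sites of Red1 on meiotic yeast chromosomes are described here. They were selected on their score alone. Of 2385 listed summits of Red1 in wild type cells, 422 (17.7%) scored 1000 or more, with a 95% Wilson interval of 16.2 to 19.3% that reflects counting error alone. The score is the peak caller's −log10 of a p or q value for the ChIP signal against input, and a summit is the single base at which a peak is highest. The 422 are called strong summits below, and the other 1963, with scores from 20.0 upward, weaker summits.

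The study followed chromatin proteins of budding yeast in meiosis by chromatin immunoprecipitation and sequencing (ChIP-seq). The summits come from 4 anti-Red1 libraries of wild type cells of the rapidly sporulating strain SK1, fixed 3 hours into meiosis. They were set against 4 inputs of SK1 cells of the same time point, 3 made for Red1 and 1 listed as an SMC4-PK9 input without resonication. The genotype label is H119 for 3 anti-Red1 libraries, and for the remaining 1 it is H6408, as for the SMC4-PK9 strain. No agent is named for these 8 libraries, and whether they come from separate cultures is not stated. The authors pooled them, so each summit has 1 value, no spread between libraries can be given, and the depth is unknown. The other 87 samples of the series were not analysed here.

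In meiotic prophase the chromatin of each chromosome is organised as loops whose bases are held on a protein axis. In budding yeast this axis is built from cohesin with the meiotic subunit Rec8, from Red1, and from Hop1, a HORMA-domain protein that binds Red1. Spo11 makes the DNA breaks that start recombination mostly in loop sequence, while axis proteins are needed for normal break levels and for repair from the homologous chromosome. A ChIP summit of Red1 marks a place where DNA was crosslinked to Red1, directly or through other proteins, in many cells of a culture. Whether Rec8 or Hop1 also lay at these summits was not analysed here. Positions are in the authors' SK1 assembly, for which no sequence or gene annotation was used, so summits are named by chromosome and position and not by gene.

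The scores of the strong summits, which chose them, ran from 1002 to 2847 with a median of 1638 and a middle 50% from 1248 to 2053. The median of the weaker summits was 114. Scores of 1500 or more were held by 248 strong summits, of 2000 or more by 119 and of 2500 or more by 40. The 5 highest were position 907346 of chromosome XV (score 2847), 130253 of I (score 2845), 637708 of IV (score 2786), 170042 of XV (score 2785) and 261730 of X (score 2755). These 5 lay between 2343 and 8655 bp from the nearest other summit, and between 88.3 and 620 kb from the nearest outermost summit of their chromosome.

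The threshold did not fall in a gap of the scores. There were 42 summits from 1000 to below 1100 and 42 from 900 to below 1000. The 5 strong summits nearest the threshold scored 1002 (position 236406 of chromosome IX), 1009 (875533 of XII), 1013 (34396 of III), 1016 (660812 of XVI) and 1021 (13301 of XIII). The 5 summits just under it scored 997 (381023 of VII), 995 (56275 of XIV), 993 (533648 of XV), 992 (220405 of XVI) and 989 (341753 of II). Of these, the summit on chromosome VII lay 49.1 kb from the nearest strong summit and the one on chromosome XV 3.07 kb from it. That summit on chromosome VII stood in one of the long stretches without a strong summit described below.

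Strong summits were found on all 16 nuclear chromosomes, from 15 on chromosomes I and VIII to 48 on chromosome IV. Over spans from first to last listed summit, which added up to 11446 kb, their density was 3.69 per 100 kb, and that of weaker summits was 17.1 per 100 kb. Chromosome I was the densest with 7.48 strong summits per 100 kb (exact 95% Poisson interval 4.19 to 12.3, counting error only). Chromosome VI followed with 5.88 (3.36 to 9.55) and chromosome III with 5.51 (3.21 to 8.83). Chromosome IX had 4.32, and chromosome XII, which carries the ribosomal DNA, was the sparsest with 2.59 (1.69 to 3.79). Each chromosome's interval overlapped that of its neighbours in this order, and only the interval of chromosome I lay wholly above the overall density.

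**Figure D1:**
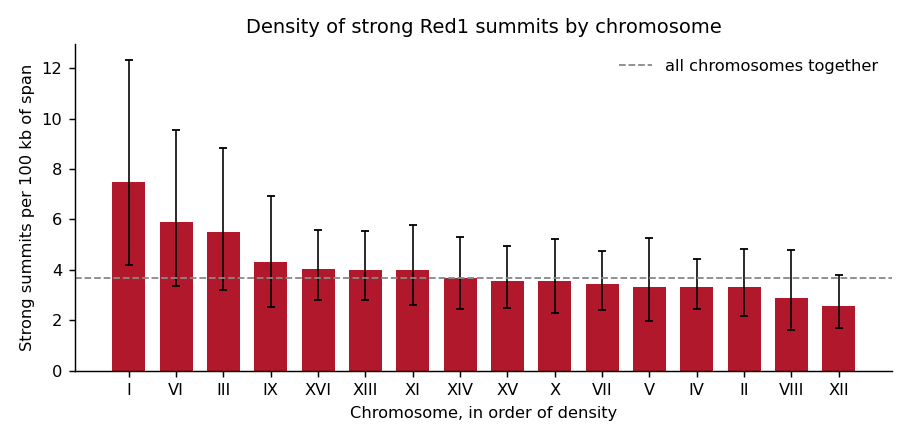
Strong Red1 summits per 100 kb of span (bars) on each of the 16 chromosomes, in order of density, with exact 95% Poisson intervals (error bars) and the density of all chromosomes together (dashed line, 3.69). Chromosomes I, VI and III come first with 7.48, 5.88 and 5.51 per 100 kb, and chromosome XII comes last with 2.59.

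Chromosomes I, III and VI, the short ones of the karyotype, averaged 6.29 ± 1.05 strong summits per 100 kb (SD, 3 chromosomes), against 3.54 ± 0.48 on the other 13 (SD). The ranges, 5.51 to 7.48 and 2.59 to 4.32, did not overlap. The ratio of these means was 1.78, and for weaker summits it was 1.38, from 23.5 ± 1.81 on the 3 short chromosomes and 17.0 ± 1.6 on the other 13 (SD). Whether these ratios differ was not tested. Among the summits of a chromosome, the strong ones made up 23.4% on chromosome I (95% Wilson interval 14.7 to 35.1%) and 12.6% on chromosome VIII (7.79 to 19.8%), the highest and lowest shares. The intervals of all 16 chromosomes held the overall share of 17.7%.

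The median score of the strong summits of a chromosome ran from 1420 on chromosome IX to 1984 on chromosome VI, with a mean over chromosomes of 1639 ± 160 (SD, 16 chromosomes). Chromosome I came after VI with 1899. Chromosome III, at 1563, lay within the range of the 13 longer chromosomes, 1420 to 1819.

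Neighbouring strong summits lay a median of 18.1 kb apart over 406 distances. The middle 50% ran from 11.2 to 31.2 kb and the middle 80% from 7.47 to 55.4 kb. Distances from 10 to below 40 kb made up 249 of the 406 (61.3%), and 17 distances (4.19%) were under 5 kb. The coefficient of variation of the distances, their SD divided by their mean, was 0.93, from a mean of 25.9 kb and an SD of 24.1 kb. For all listed summits it was 0.96 and for the weaker summits alone 1.10. The difference between these values was not tested.

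**Figure D2:**
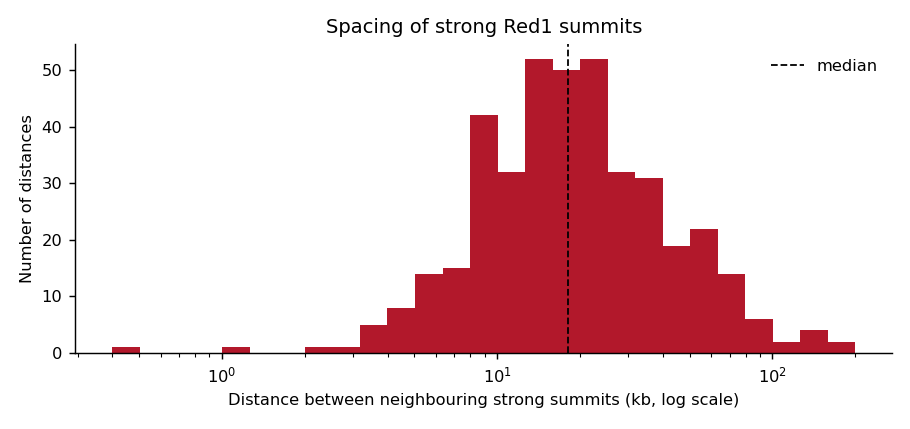
Number of distances between neighbouring strong Red1 summits (bars) by length in kb on a log scale, with the median of 18.1 kb (dashed line). Of the 406 distances, 249 lie between 10 and 40 kb, 17 lie under 5 kb and 50 exceed 50 kb.

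Median distances by chromosome were 9.76 kb on chromosome I, 9.63 kb on VI and 9.46 kb on III, and between 14.0 kb on chromosome IX and 28.7 kb on chromosome V on the other 13. Over all distances, the 45 on the 3 short chromosomes had a median of 9.63 kb and the 361 on the other 13 a median of 19.5 kb.

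Strong summits seldom had another strong summit close by. The shortest distance was 494 bp, between positions 847209 and 847703 of chromosome XII, and the next was 1095 bp, between positions 191736 and 192831 of chromosome XI. Chromosome VII followed with 2315 bp between positions 478438 and 480753, chromosome XV with 3086 bp between 177016 and 180102, and chromosome I with 3256 bp between 82909 and 86165. Of these 5 pairs, the one on chromosome VII held a weaker summit between its members, with a score of 33.7. From 2 to 3 kb around a strong summit there were 0.024 other strong summits per 10 kb, and from 4 to 5 kb 0.19, against an average of 0.37 over the spans. From 7.5 to 10 kb there were 0.46, from 10 to 15 kb 0.39 and from 15 to 20 kb 0.45, each above that average. The rings farther out were also above the average, with 0.44 from 20000 to 30000 bp and 0.40 from 30000 to 50000 bp. The values from 7.5 kb outward therefore single out no preferred distance.

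Weaker summits were also scarcer next to strong ones. Within 500 bp of a strong summit there were 0.21 weaker summits per 10 kb, from 500 bp to 1 kb 0.97, and from 1.5 to 2 kb 1.21, against 1.71 over the spans. From 3 kb outward the values lay between 1.51 and 1.79. Around summits with a score from 100 to below 1000 (1061 summits) there were 3.07 weaker summits per 10 kb between 500 bp and 1 kb. Around summits below 100 (902 summits) there were 3.44 in that ring. In the innermost 500 bp these classes had 0.89 and 1.37, also under the average, so the innermost ring was sparse for every class.

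**Figure D3:**
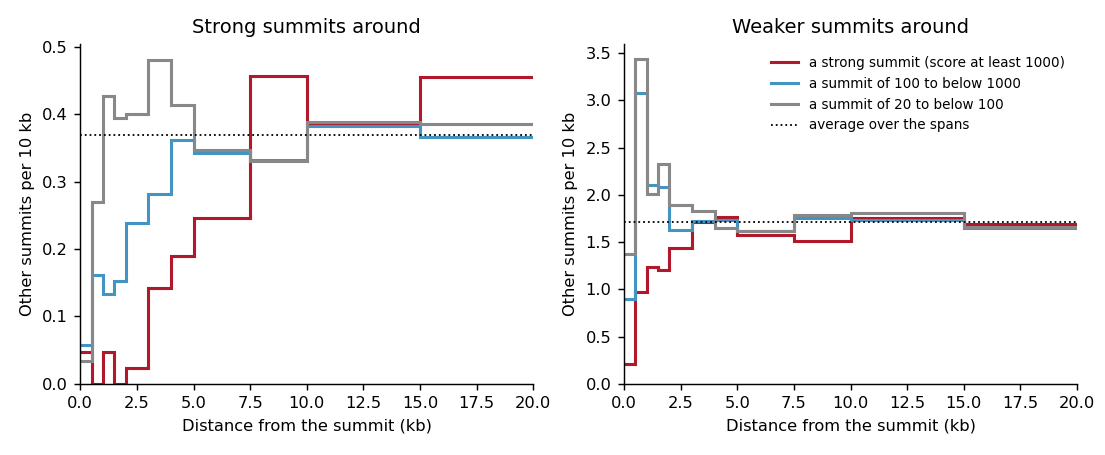
Other strong summits (left) and weaker summits (right) per 10 kb, by distance in kb from a strong summit (red), from a summit of 100 to below 1000 (blue) and from a summit of 20 to below 100 (grey), with the average over the spans (dotted). Around strong summits both kinds are below the average within 3 kb, and between 500 bp and 1 kb the other classes have 3.07 and 3.44 weaker summits per 10 kb against 0.97 around strong ones.

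A strong summit had its nearest other listed summit at a median of 3092 bp (middle 50% from 1528 to 5287 bp), and a weaker summit at 1317 bp (689 to 2782 bp). Another summit lay within 1 kb of 51 strong summits (12.1%, Wilson interval 9.31 to 15.5%) and of 798 weaker ones (40.7%, 38.5 to 42.8%), with 35.6% over the whole list. The share was lower for strong summits on all 16 chromosomes. It was 0% of strong summits on chromosomes I and X, and highest, at 30.8%, on chromosome XII. The list gives 1 summit per numbered peak and no peak widths. Sites within 1 peak therefore count once, and the part of this in the distances was not tested.

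Weaker summits between 500 bp and 3 kb from the nearest strong one had lower median scores than those farther out. This description is bounded by the rule, since weaker scores end at 1000. The 150 weaker summits within 2 kb of a strong one had a median score of 63.1 (middle 50% from 34.9 to 138). The 1436 that were 5 kb or more away had a median of 140 (53.8 to 355). In the innermost 500 bp, with 9 weaker summits, the median was 142 and 22.2% scored 500 or more, which was no lower than far from strong summits. Between 1 and 1.5 kb the median was 51.1 and 3.92% did, and from 10 to 20 kb the median was 148 and 18.4% did.

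Between neighbouring strong summits lay a median of 3 weaker summits, with a middle 50% from 1 to 6 and a mean of 4.27 ± 4.86 (SD, 406 intervals). In all, 1735 of the 1963 weaker summits lay between strong ones, and 228 lay outside the outermost strong summits. At most 5 were found in 301 intervals (74.1%), and 10 or more in 45. The number grew with the length of the interval. Spearman's rho was 0.80 and Pearson's r 0.89 across the 406 intervals, which share neighbours and the average density of the list. From 10 to 20 kb an interval held 2 weaker summits (median), from 20 to 30 kb 4, and from 40 to 60 kb 9.

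**Figure D4:**
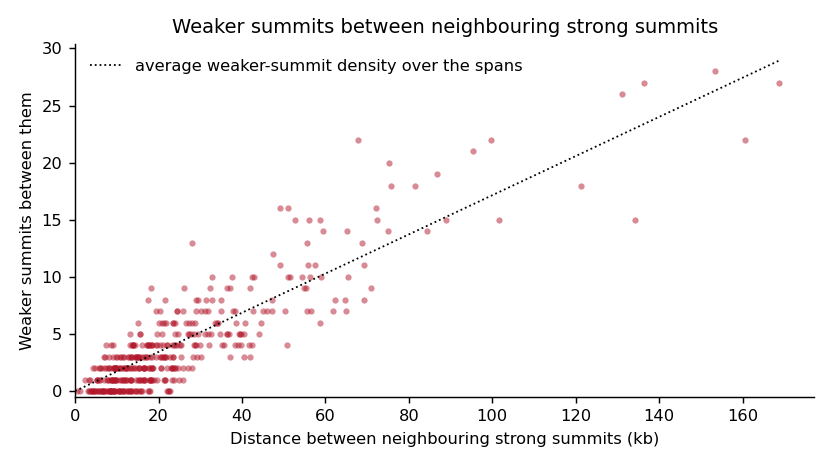
Number of weaker summits between 2 neighbouring strong summits (points, 406 intervals) against the distance in kb, with the number that the average density of weaker summits would give (dotted). The points follow the line up to the longest distance, 169 kb, which held 27 weaker summits.

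No weaker summit was listed in 68 intervals (16.7%, Wilson interval 13.4 to 20.7%). They had a median length of 9.21 kb and reached 22.6 kb, while the other 338 had a median of 21.4 kb. Seen from a strong summit, the next summit was strong in 16.1% of cases (12.9 to 19.9%), and seen from a weaker one in 18.2% (16.5 to 20.0%), with 17.8% over all summits that have a next one. These Wilson intervals overlap, and whether strong summits gather or separate in the order of the list was not tested. The pooled shares cover unlike chromosomes. No weaker summit was listed in 15 of the 45 intervals on chromosomes I, III and VI (33.3%) and in 53 of the 361 on the other 13 (14.7%). Strong summits made up a mean of 21.1% and 17.3% of the summits of these 2 groups of chromosomes. Of the 422 strong summits, 296 had a weaker one on both sides. There were 50 pairs, 6 triplets and 2 runs of 4.

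The runs of 4 differed in their scores. On chromosome VI, positions 84159, 89545, 99174 and 104731 scored 2168, 2670, 1465 and 2191 within 20.6 kb. On chromosome XII, positions 833826, 847209, 847703 and 853878 scored 2516, 1140, 1454 and 1093 within 20.1 kb. The run on chromosome XII includes the closest pair of strong summits of the list.

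The highest weaker summit of an interval varied in score, and the 68 intervals without a weaker summit are left out here. In the 338 intervals with any, the highest weaker score had a median of 455, was 500 or more in 159 (47.0%) and was under 100 in 56 (16.6%). Its median was 106 in intervals of 5 to 10 kb, 253 from 10 to 20 kb, 491 from 20 to 30 kb and 760 from 40 to 60 kb. Longer intervals hold more summits, and the highest of more values is higher by construction.

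The longest stretches without a strong summit were not empty. The longest, 169 kb on chromosome VII between positions 752991 and 921768, held 27 weaker summits, the highest at position 780269 with a score of 892. Its median weaker score was 52.6, and 14 of the 27 scored under 100. The second, 161 kb on chromosome XII between positions 331193 and 491868, held 22 weaker summits with a median of 67.5 and a highest score of 815. It contains a gap of 39.2 kb with no listed summit at all, ending at its highest weaker summit, position 376695.

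The third stretch ran for 153 kb on chromosome VIII, between positions 251711 and 405188, and held 28 weaker summits, the most of any interval, with a median of 163. The fourth covered 136 kb of chromosome XI, between positions 287179 and 423547. It held 27 weaker summits, and its highest, 941 at position 337377, came close to the threshold. The fifth covered 134 kb of chromosome XV, between positions 302578 and 436750, and held 15 weaker summits with a median of 274. A score of 500 or more was held by 7 of the 27 weaker summits in the stretch on XI and by 4 of the 15 on XV. It was held by 3 of 27 in the longest stretch, on VII, by 3 of 22 on XII and by 3 of 28 on VIII. Over the list, 299 of the 1963 weaker summits held such a score. Another 131 kb on chromosome VII, between positions 299084 and 430161, held 26 weaker summits, among them the one with a score of 997 just under the threshold. The 5 longest stretches together had 1.58 weaker summits per 10 kb, against 1.71 over all spans.

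**Figure D5:**
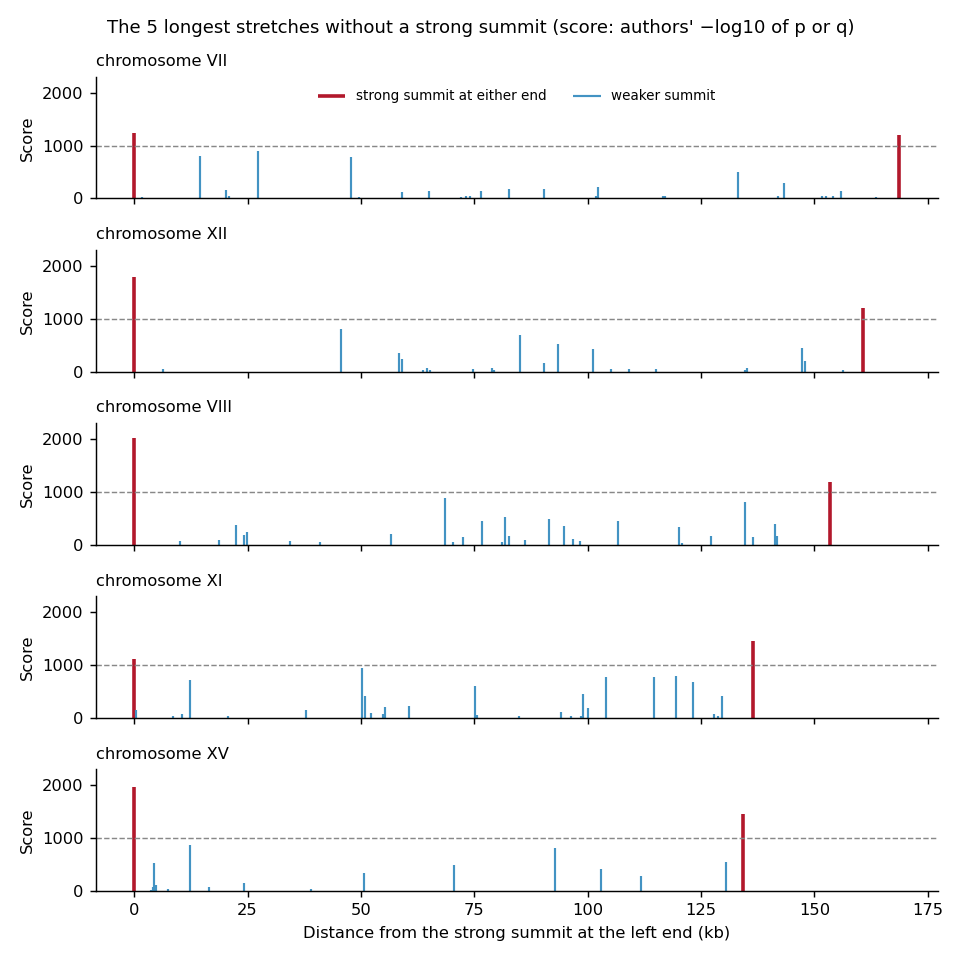
Scores of all listed summits (lines, the authors' −log10 of p or q) in the 5 longest stretches without a strong summit, by distance in kb from the strong summit at the left end. Strong summits (red) stand at both ends only, and the weaker ones (blue) between them reach 892 on chromosome VII, 815 on XII, 875 on VIII, 941 on XI and 862 on XV, under the dashed line at 1000.

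In all, 50 intervals were longer than 50 kb. They took up 36.6% of the length between neighbouring strong summits and held 696 weaker summits, or 1.81 per 10 kb, against 1.56 per 10 kb in the 356 shorter intervals. In 45 of the 50 the highest weaker summit scored 500 or more, and its median over the 50 was 795. Over the whole list, 299 of the 1963 weaker summits scored 500 or more. Long intervals hold many weaker summits, so a high maximum is expected by construction and is no trait of these stretches. Such long intervals occurred on 14 chromosomes. Chromosomes I and VI had none, with longest intervals between strong summits of 26.0 and 32.4 kb. At the left ends of these chromosomes, outside the first strong summit, 27.6 kb on I and 54.3 kb on VI also held no strong summit. Chromosome III had 1, of 99.7 kb between positions 95826 and 195515, with 22 weaker summits whose highest score was 548. On chromosomes II and IV the longest stretches measured 95.4 and 102 kb.

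Strong summits were also counted in windows of 50 kb. Among windows of 50 kb that begin at a strong summit, the richest started at position 72240 of chromosome VI and held 7 strong and 5 weaker summits, with strong scores from 1074 to 2670 and distances from 4.83 to 11.9 kb between neighbours. Windows with 6 strong summits were found on 6 chromosomes, I, III, VI, VII, XII and XVI. The tightest of those that do not overlap the richest window began at position 34396 of chromosome III, with 12 weaker summits, and at position 130253 of chromosome I, with 6. The chromosomes were also cut into 221 fixed windows of 50 kb, starting at the first listed summit. The shorter remainders at the right ends were left out. The windows held 1.86 ± 1.23 strong summits each (SD) and 8.49 ± 3.21 weaker ones. The variance of these counts divided by their mean was 0.81 for strong and 1.21 for weaker summits, where Poisson counts would give 1. The departure from 1 was not tested. A window had 0 strong summits in 32 cases and 4 or more in 20, with a highest count of 6. The mean number of weaker summits was 9.44 in the 32 windows with 0 strong ones, 8.40 in the 57 with 1, 8.52 in the 66 with 2, 7.80 in the 46 with 3 and 9.13 in the 16 with 4, with SDs from 2.51 to 3.88. The 3 windows with 5 strong summits had a mean of 8.33 weaker ones (SD 5.03), and the 1 window with 6 held 3. The means followed no single direction, and their differences were not tested. Across the 221 windows Spearman's rho between strong and weaker counts was -0.11 and Pearson's r -0.10.

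None of the 32 outermost summits of the 16 chromosomes was strong. If a count of 0 is taken to allow up to 3, the share could reach 9.38%, a bound that is not a Wilson interval. The scores of these outermost summits ran from 21.9 to 747 with a median of 64.6. Within 25 kb of an outermost summit, 16 of 215 summits were strong (7.44%, Wilson interval 4.63 to 11.7%), against 18.7% (17.1 to 20.4%) of the other 2170. Within 50 kb the shares were 12.9% of 402 summits and 18.7% of 1983, with Wilson intervals that did not overlap, and within 100 kb 17.4% of 746 and 17.8% of 1639. Seen from the strong summits, 12.3% lay within 50 kb of an outermost summit, against 17.8% of the weaker ones and 16.9% of all. This difference, strong minus weaker, was -5.51 percentage points, and -4.15 with the outermost summits left out. Its SD across the 16 chromosomes was 10.5 percentage points. The strong summits within 50 kb of an outermost summit, 52 in all, are few per chromosome. How much of the SD is counting error was not tested. The Wilson intervals do not include that spread. The stretch from an outermost summit to the first strong one had a median of 27.3 kb over the 32 ends. It was longest on the left of chromosome XV, with 85.9 kb and 16 weaker summits, on its right with 56.3 kb and 10, and on the right of chromosome IX with 54.3 kb and 18. It was shortest, at 1496 bp, on the left of chromosome XVI.

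The peak numbers of the list ran to 2802, and 417 numbers had no listed summit. An unlisted number stood directly before or after 128 strong summits (30.3%, Wilson interval 26.1 to 34.9%), against 529 weaker ones (26.9%, 25.0 to 29.0%) and 27.5% of all, so the intervals overlapped. Between neighbouring strong summits 363 unlisted numbers fell, and the median number of peaks between them was 3 also when these were counted.

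Among strong summits, score and surroundings were weakly correlated. Pearson's r between the log10 scores of neighbouring strong summits was 0.09 over 406 pairs. Spearman's rho between the score and the mean of the distances to both neighbouring strong summits was -0.06 over 390 summits. Those with a score of 1500 or more (228) had a median of 19.7 kb for this mean distance and those below (162) one of 21.4 kb.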

How the data were processed

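One deposited list of Red1 summits was analysed. Its scores are −log10 of a p-value or q-value, written by the authors' peak caller; which of the 2 is not stated. Bowtie and MACS2 2.1.1 are named in the submitters' processing notes, and the peak names carry the genome tag SK1Yue. Options and depth are not given in the sources used here. The authors pooled the replicates, per the labels, and kept scores over 20, per the name of the list. Reads were 51 bp and fragments 300 to 500 bp, per the labels, so distances of that order approach the resolution. A −log10 value grows with depth, so 1000 has no meaning outside this list.

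Distances, counts and densities were computed with Python 3.11.15, numpy 2.4.6, pandas 2.3.3 and scipy 1.17.1. The functions for intervals, densities and distances to the nearest strong or nearest other summit were tested on simulated data. The computations for windows, chromosome ends and rings around summits were not tested in this way. Intervals are 95% Wilson or exact Poisson intervals and cover counting error only. The score chose the strong summits and there is no value per library, so no test was made. The members, lists and measures were chosen with earlier results of these data known. Named summits are the 5 highest, the 5 on either side of the threshold, and the ends of the 5 shortest and 5 longest intervals, the 5 intervals with most weaker summits, the 3 longest end stretches, the 3 richest windows and the longest runs. Chromosomes singled out for a value, and the shortest end stretch, were chosen after their values were seen.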

Additional observations from a re-analysis of the deposited data

How the results depend on the processing

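No paired analysis was possible because the list pools its replicates, and for the same reason no replicate could be left out. Of 82 alternatives to 12 results, 75 were planned and 7 added after the data were seen. In 65 a value moved by less than its limit, which was its SD across chromosomes, its binomial interval or 1.5 times a count. No difference changed sign, and only the results that are differences could do so. These are the density of the short chromosomes, the share with a neighbour, the share near ends and the score near and far. The other results cannot be negative, so no reversal was possible for them. At score minimums of 900 and 1100, no recomputed result moved beyond its limit. The same held without chromosome XII and without chromosomes I, III and VI. The score difference of weaker summits near and far from strong ones was recomputed under none of these, and the longest stretch and the richest window not without the short chromosomes. A minimum of 500 gave 721 members at 6.30 per 100 kb, a median of 2 weaker summits between them, 27.5% of intervals with none and a longest stretch of 121 kb. At that minimum the median spacing was 12.5 kb, against 18.1 kb as reported. This change counts among the 65 because the SD across chromosomes was 5.97 kb. The top 10% of scores gave 239 members at 2.09 per 100 kb, a median spacing of 25.8 kb with 4 weaker summits, 8.52% of intervals with none and a longest stretch of 329 kb. Another minimum changes the number of members by construction. The density difference of the short chromosomes was 4.37 per 100 kb, against 2.75 as reported, when spans ran from first to last strong summit. Means in place of medians gave 25.9 kb and 4.27 weaker summits. The share with a neighbour, strong minus weaker, was -8.60 percentage points within 500 bp and -28.6 within 1 kb. Windows of 25 and 100 kb held at most 4 and 11 strong summits. The difference near ends was -0.57 percentage points within 100 kb and -4.15 with the outermost summits left out, against -5.51 within 50 kb. Both alternatives count among the 65, because the SD of this difference across chromosomes was 10.5 percentage points, more than its own size. The count of 65 is therefore no measure of stability for this result. The unknown depth limits every score, and a stretch without a strong summit was not shown to lack Red1.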
